A study of Homo sapiens with 2 samples.

Results

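Long unmethylated valleys are stretches of the genome several kilobases long in which almost no CpG is methylated. In the human embryonic stem cell line H9, 1194 such valleys were found on the autosomes. They were chosen by their measured methylation: bins of 1000 bp, counted from position 0, qualified with at least 10 listed CpGs, at least 10 CpG reads summed over both replicates and under 15% of those reads methylated, and a valley is an unbroken run of 4 or more qualifying bins. Of 796703 bins with enough CpGs and reads, 39266 qualified, which is 4.93%. They formed 21553 runs, of which 10140 were single bins, 10219 held 2 or 3 bins and 1194 (5.54%) were valleys. The low methylation inside the valleys, their CpG content and their length of at least 4000 bp are therefore the rule itself and are given as a description.

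The assay was ATAC-Me, in which a transposase inserts adapters into open chromatin and bisulfite conversion then reads the methylation of each fragment, so accessibility and methylation come from the same DNA. There was 1 group with 2 replicates: chromatin of undifferentiated H9 cells grown on Matrigel in mTeSR medium, with no treatment and no other genotype. Replicate 1 held 28475863 reads over autosomal CpGs and covered 31.6% of them, and replicate 2 held 51406146 reads and covered 58.97%. Nothing in the labels says that the replicates came from separate cultures, so their spread may be technical. The 46884 autosomal peaks of accessibility are 1 list for the group. At the starts of pluripotency genes, the homeobox gene NANOG, the HMG-box gene SOX2 and the NODAL co-receptor gene CRIPTO had at most 2.16% of reads methylated in either replicate and overlapped peaks, while the methyltransferase gene DNMT3B overlapped a peak with 38.8% and 37.8%. The neural progenitor markers PAX6, SOX1 and NES were also under 3% methylated at their starts and overlapped peaks, as was VIM, the only fibroblast marker with a known start, so low methylation at these starts was shared by all 3 marker lists.

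Most CpGs of mammalian DNA are methylated, and CpG islands at gene starts are the main exception. At genes that control development, the unmethylated stretch often runs far past the island across much of the gene; such stretches have been called DNA methylation valleys or canyons. In embryonic stem cells many of these genes are silent and carry the histone marks of the polycomb complexes, which keep developmental genes off until a lineage uses them.

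The starts of 6 genes show the span of what the valleys hold, and their sequences (GRCh38.p14, from RefSeq, from 250 bases before to 50 after the start, written in the direction of the gene, CpGs in capitals) are printed to show how CpG content and accessibility differ among starts that are all unmethylated. UNCX (chr7:1232622-1232921, plus strand), GATA3 (chr10:8045083-8045382, plus strand) and DMRTA2 (chr1:50423394-50423693, minus strand) had no base of this window in a peak. PAX6 (chr11:31817912-31818211, minus strand) had 240 bases in a peak. SOX12 (chr20:325302-325601, plus strand) and POU3F1 (chr1:38046744-38047043, minus strand) had 300, the whole window.
UNCX: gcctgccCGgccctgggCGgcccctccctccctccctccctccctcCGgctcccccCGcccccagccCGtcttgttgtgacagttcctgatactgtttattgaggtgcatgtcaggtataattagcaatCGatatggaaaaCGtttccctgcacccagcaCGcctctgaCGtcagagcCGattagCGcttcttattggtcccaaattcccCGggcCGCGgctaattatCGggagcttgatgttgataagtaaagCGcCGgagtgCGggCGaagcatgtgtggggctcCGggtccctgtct
GATA3: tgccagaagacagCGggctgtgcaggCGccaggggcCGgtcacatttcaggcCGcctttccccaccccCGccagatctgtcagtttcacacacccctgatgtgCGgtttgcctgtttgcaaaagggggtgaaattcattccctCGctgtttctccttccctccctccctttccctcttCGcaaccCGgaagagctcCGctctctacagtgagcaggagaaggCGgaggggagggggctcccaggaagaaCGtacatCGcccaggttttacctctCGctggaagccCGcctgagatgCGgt
DMRTA2: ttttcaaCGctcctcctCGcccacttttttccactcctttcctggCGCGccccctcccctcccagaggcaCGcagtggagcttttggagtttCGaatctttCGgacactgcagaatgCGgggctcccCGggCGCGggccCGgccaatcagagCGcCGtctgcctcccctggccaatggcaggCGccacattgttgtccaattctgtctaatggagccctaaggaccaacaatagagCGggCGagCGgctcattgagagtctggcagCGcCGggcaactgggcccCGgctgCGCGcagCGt
PAX6: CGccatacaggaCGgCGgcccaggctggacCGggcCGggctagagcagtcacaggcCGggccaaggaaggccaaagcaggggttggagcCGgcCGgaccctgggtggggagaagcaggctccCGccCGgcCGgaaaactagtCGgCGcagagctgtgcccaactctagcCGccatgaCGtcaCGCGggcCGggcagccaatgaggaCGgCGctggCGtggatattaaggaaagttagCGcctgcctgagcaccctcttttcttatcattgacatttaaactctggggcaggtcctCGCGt
SOX12: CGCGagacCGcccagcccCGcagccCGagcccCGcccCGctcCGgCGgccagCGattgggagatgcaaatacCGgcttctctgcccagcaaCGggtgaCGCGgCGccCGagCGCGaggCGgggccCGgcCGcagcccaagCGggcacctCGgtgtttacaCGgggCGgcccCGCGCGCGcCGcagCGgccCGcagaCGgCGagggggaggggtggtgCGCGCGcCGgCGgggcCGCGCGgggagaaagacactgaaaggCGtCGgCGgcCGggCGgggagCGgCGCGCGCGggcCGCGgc
POU3F1: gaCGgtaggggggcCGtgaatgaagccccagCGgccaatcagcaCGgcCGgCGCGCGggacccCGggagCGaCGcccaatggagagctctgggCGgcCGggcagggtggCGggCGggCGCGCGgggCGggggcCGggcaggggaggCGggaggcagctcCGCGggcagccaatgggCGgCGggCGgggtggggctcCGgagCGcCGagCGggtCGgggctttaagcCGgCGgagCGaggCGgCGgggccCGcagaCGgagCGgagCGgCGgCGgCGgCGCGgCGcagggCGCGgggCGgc

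The 6 windows hold 20, 16, 24, 24, 54 and 49 CpGs in that order, against a median of 23 over 15101 starts of protein-coding genes. In GATA3, a zinc finger factor of T cells and trophoblast, 0 of 149 CpG reads were methylated in replicate 1, which allows up to 2.01%, and 1 of 94 in replicate 2. In UNCX, a homeobox gene of the somites, the counts were 0 of 8 reads, which allows up to 37.5%, and 3 of 69. DMRTA2, a DM-domain factor of the developing cortex, had 0 of 154, which allows up to 1.95%, and 2 of 98. The window of PAX6, the master gene of eye development, had 0 of 167, which allows up to 1.80%, and 5 of 223. SOX12, an HMG-box factor, had 0 of 1058, which allows up to 0.284%, and 17 of 2123. POU3F1, a POU-homeobox gene of glia and epiblast, had 1 of 407 and 28 of 1135. The starts in peaks thus carried the most reads, and the limit for UNCX in replicate 1 is wide. A read is counted at each of its CpGs, so the counts are not independent and all these limits are too narrow. Over all gene starts in valleys the median was 26 CpGs in this window, against 28 at starts in shorter runs and 4 at starts in no run. The letters TATAAA, searched on both strands, occurred in 9.75% of the windows of valley starts, 4.75% of those in shorter runs, 20.4% of those in no run and 9.56% of all.

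The valleys together spanned 6.555 Mb and took up 16.7% of the qualifying bins. The median length was 4000 bp, 622 valleys (52.1%) had exactly 4 bins, 203 had 5 bins, 82 had 10 or more, 17 had 15 or more and the longest had 27. Of their CpG reads 1.18% were methylated in replicate 1 and 2.25% in replicate 2, a mean of 1.71% ± 0.756 (SD, n = 2). Shorter runs read 1.85% and 3.02%, and the autosomes outside all runs 72.6% and 80.2%. The median valley had 1.15% and 2.07%, and 1113 valleys (93.2%) were under 5% in each replicate. Replicate 2 was the higher in 1044 valleys (87.4%), the same direction as over the whole autosomes, where 32.3% and 46.01% of CpG reads were methylated. How the depth or conversion of the libraries bears on that shift was not tested.

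**Figure D1:**
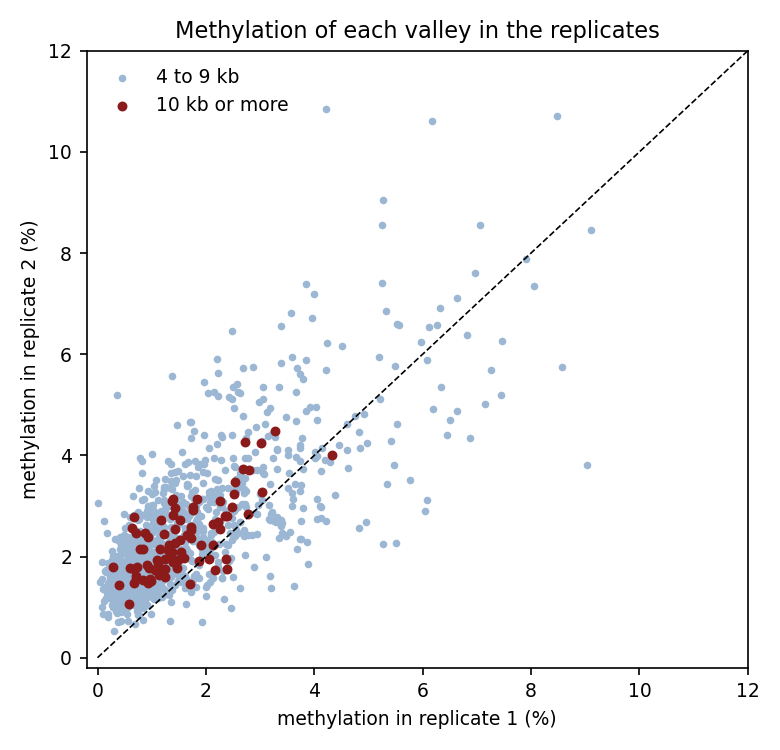
Methylation of each of the 1194 valleys, in percent of CpG reads, in replicate 1 (x axis) and replicate 2 (y axis). Each point is a valley, dark points are the 82 valleys of 10 kb or more, and the dashed line marks equal values; 1044 points lie above it.

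Within a valley the bins were not all alike. The highest bin of a valley had a median of 7.55% pooled methylation, and in 400 valleys (33.5%) at least 1 bin reached 10%. The median valley held 1240.5 CpG reads in replicate 1 and 1782.5 in replicate 2, the lowest held 65 and 119, and 55 valleys had a bin with under 20 reads. Reads per CpG were 5.15 and 7.05 in valleys, below the 8.01 and 11.3 of shorter runs and above the 0.477 and 1.12 outside all runs. Around the limit, valleys at DMTN and FGF17, at HOXB9 and inside BCL9L had a bin at 14.9%, 14.9% and 14.97%, just inside. Runs of 3 bins at WNT6, HOXA10 and FOXD4L3 ended at a bin of 15%, just outside, and are not valleys.

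The longest valleys lay over genes for transcription factors of the embryo. The longest, 27 kb, covered GATA3 (chr10:8034001-8061000) with 1.12% of 3295 reads methylated in replicate 1 and 1.86% of 4578 in replicate 2. The next, 25 kb, covered UNCX (chr7:1224001-1249000) with 2.78% of 2016 and 2.85% of 4218. PAX6 (chr11:31797001-31821000) lay in 24 kb with 1.15% and 2.15%. The paired genes DLX1 and DLX2, homeobox genes of forebrain interneurons, shared 24 kb (chr2:172080001-172104000) with 1.31% and 2.24%. EN1, a homeobox gene of the midbrain and limb, and NKX2-2, a homeobox gene of the ventral neural tube, had 19 kb each. Others of the 15 longest also held listed or related regulators of development: OTX1 with 17 kb, PAX2 with 16 kb, and ZNF503, LHX5, SIX3 and SP9 with 15 kb. Also among the 15 were CBX8, a polycomb subunit gene, with 18 kb and NRN1, the gene of the neuronal surface protein neuritin, with 16 kb. The valleys of TFAP2A and EBF2 had 15 kb as well and tie with the last of these. Over the 14 reported here the methylation of a valley was between 0.642% (NKX2-2) and 2.78% (UNCX) in replicate 1 and between 1.74% (SIX3) and 2.85% (UNCX) in replicate 2.

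**Figure D2:**
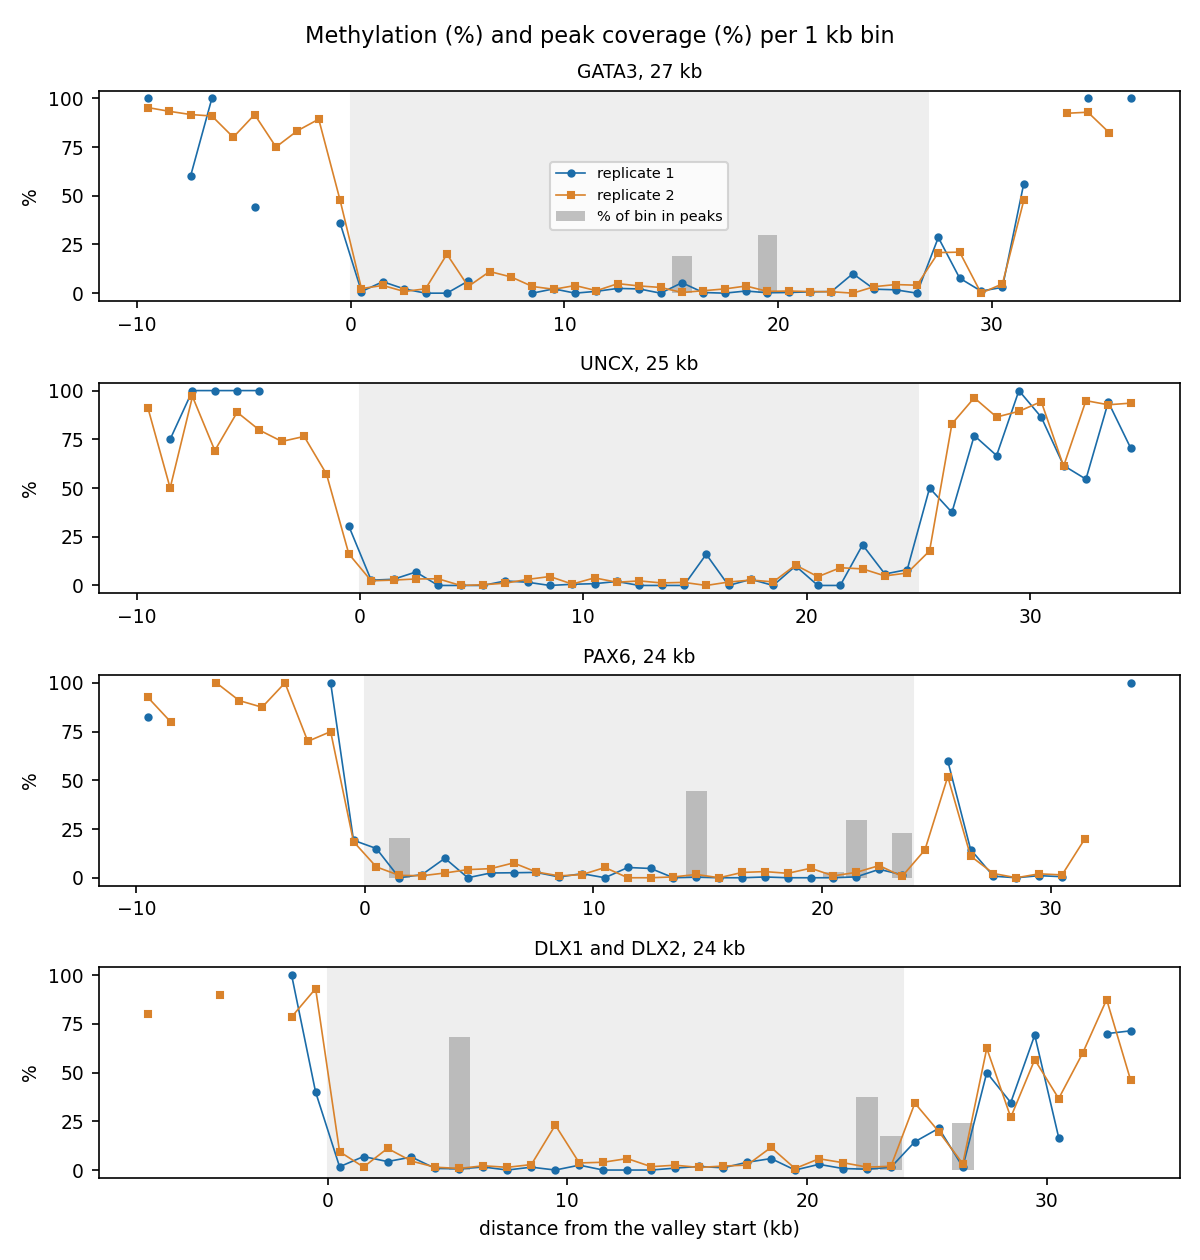
Methylation in percent of CpG reads per 1 kb bin in replicates 1 and 2, across the 4 longest valleys (GATA3, UNCX, PAX6, DLX1 and DLX2; shaded) and 10 kb on each side, with the percent of each bin in peaks as bars. Bins with under 5 reads in a replicate have no point. Values are low across the shaded spans, UNCX has no peak, and past the right edge of GATA3 and PAX6 the values drop again within a few kb.

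Of the 1194 valleys, 926 (77.6%) held the known start of a protein-coding gene or, where no start is known, an end. The far end of a gene with a known start was not counted, also where valleys without a protein-coding start or end are named below. By the same count, 247 (20.7%) held a developmental transcription factor gene, from 9 lists by DNA-binding family with 369 genes. The share of runs with such a gene was higher at greater length: 0.178% of single bins, 0.851% of runs of 2 or 3 bins, 10.1% of valleys of 4 bins, 17.4% at 5 or 6, 44.9% at 7 to 9, and 68.3% (56 of 82) at 10 or more. A longer run has more room for a gene, and no correction for that was made.

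Counted by genes, 769 of 15101 protein-coding genes with a known start had it in a valley, which is 5.09%. Among the listed developmental transcription factor genes it was 166 of 252 (65.9%). By either end of a gene, which also takes in genes without a known start, the shares were 238 of 369 (64.5%) for the listed genes and 5.24% for all 19126 genes. Shorter runs held 65.8% of all known starts but 60 of 252 (23.8%) of those listed, and only 26 of the 252 were in no run. No test was made, because genes of 1 genome are not replicates and the lists were chosen with results of these data known.

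**Figure D3:**
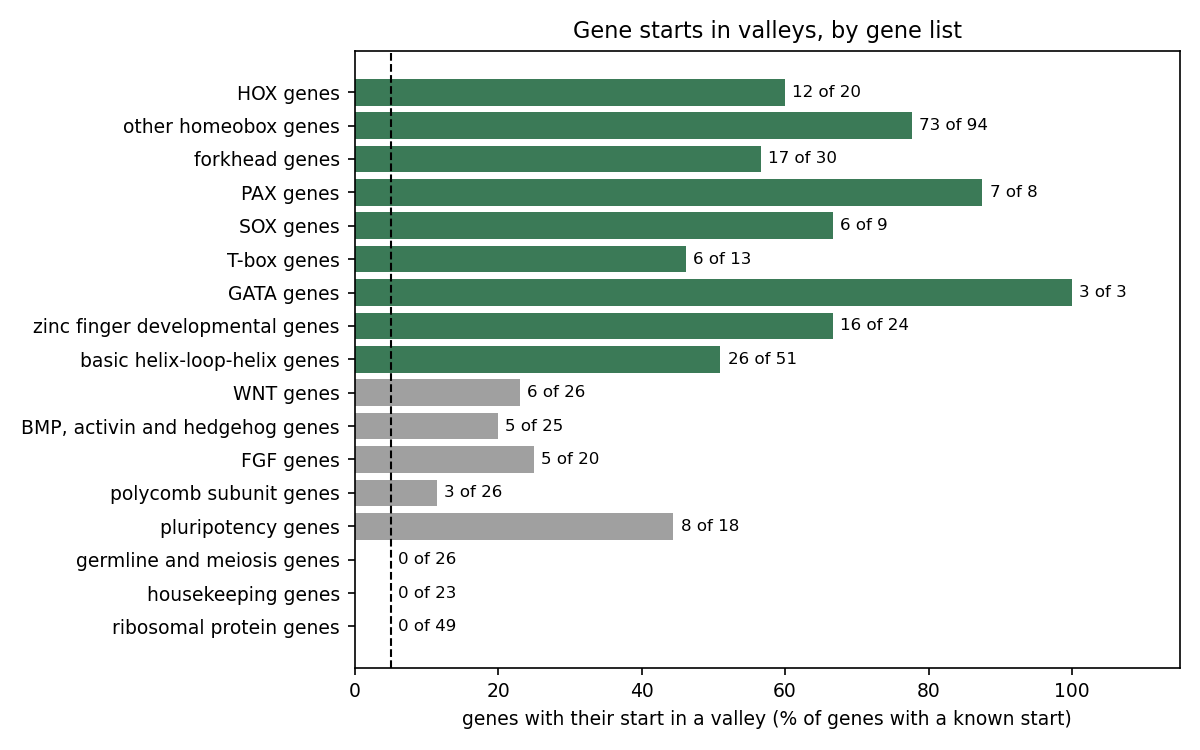
Percent of the genes of each list with their start in a valley, out of those with a known start; counts stand beside the bars. Green bars are the developmental transcription factor lists, grey bars the other lists, and the dashed line marks 5.09%, the share over all genes. The green bars run from 46.2% (T-box) to 100% (GATA), and 3 grey lists are at 0.

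The HOX genes, which pattern the body axis, stood in rows of valleys, with a median length of 6000 bp over the 23 valleys of listed HOX genes beside 4000 bp over all valleys. The HOXA cluster held 7 valleys of 42 kb in all, HOXB 6 of 36 kb, HOXC 8 of 46 kb and HOXD 6 of 30 kb, covering 36.5%, 18.0%, 39.2% and 29.0% of the clusters' spans, with 13, 23, 12 and 15 shorter runs between. None of these 27 valleys was longer than 8 kb. Their reads were 2.95% and 4.14% methylated in HOXA, 2.59% and 4.63% in HOXB, 4.12% and 4.47% in HOXC, and 2.43% and 2.80% in HOXD. All 4 clusters were thus above the 1.18% and 2.25% of valleys as a whole, where CpGs in peaks give many of the reads. Valley CpGs over 2000 bp from a peak read 2.18% and 2.96%. HOXD was below that in replicate 2, and the other clusters were above it in each replicate. How far the weight of reads in peaks makes the difference was not tested. Peaks were nearly absent: 2 in the valleys of HOXA, 0 in HOXB, 1 in HOXC and 1 in HOXD. Of 20 HOX genes with a known start 12 had it in a valley and 0 of those 12 a peak there, where 61% of all gene starts in valleys had a peak. Among the more methylated were a valley at 1 end of HOXB9 with 8.57% of only 70 reads and 5.76% of 469, and those of HOXA9 (7.46% and 6.27%), HOXD3 (7.14% and 5.01%) and HOXC6 (6.34% and 5.35%). The other end of HOXB9 lay in a separate valley of 7 kb with 1.79% and 3.32%.

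Among 94 other homeobox genes with a known start, 73 (77.7%) had it in a valley, beside 5.09% of all genes. A peak lay at the start in 37 of the 73, beside 61% of all gene starts in valleys. The 99 valleys of these genes, by start or, where none is known, by end, had a median length of 8000 bp and 1.39% and 2.24% methylation with reads summed. They ranged from 4 kb at MEIS1, a HOX cofactor gene, with 0.345% and 0.927%, to the 25 kb of UNCX. The least methylated in replicate 1 was that of ZEB1, a regulator of mesenchymal change, with 0.166% and 1.74%, and the most methylated that of TLX2, a gene of the enteric nervous system, with 8.06% and 7.35%. Limb and heart regulators were in the list too: MSX1 lay in 13 kb (1.40% and 3.13%), NKX2-5 in 13 kb (3.02% and 4.24%) and SHOX2 in 6 kb (0.309% and 1.60%).

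The smaller families hold few genes each. Of all known starts 5.09% were in valleys. Over all gene starts in valleys 61% had a peak, and the counts of peaks below rest on few starts. All 3 GATA genes with a known start were in valleys, of 27 kb (GATA3), 12 kb (GATA2, a gene of blood stem cells) and 11 kb (GATA6, a gene of endoderm and heart), and none of the 3 had a peak at the start. Of 8 PAX genes 7 were in valleys, from 4 kb at PAX8 to 24 kb at PAX6. Of 9 SOX genes 6 were, among them SOX1 of neural progenitors with 10 kb (1.70% and 1.46%), SOX2 with 5 kb (0.617% and 1.51%) and SOX12 with 4 kb (0.329% and 1.27%), and 5 of the 6 had a peak at the start. Of 13 T-box genes 6 were in valleys, such as TBXT of the primitive streak (6 kb, 1.54% and 2.38%) and EOMES of mesendoderm (5 kb, 0.331% and 1.59%). Forkhead genes gave 17 of 30, zinc finger developmental genes 16 of 24 and basic helix-loop-helix genes 26 of 51. FOXA1, a pioneer factor of endoderm, had 10 kb, ZIC4 of the cerebellum 11 kb, and the lineage genes HAND1, HAND2 and OLIG3 had 13, 12 and 12 kb. The basic helix-loop-helix genes of muscle MYF5, MYF6 and MYOG had their starts in no run, as did 4388 of all 15101 genes with a known start.

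Among genes of signalling pathways the counts with a start in a valley were 6 of 26 WNT pathway genes, 5 of 25 BMP, activin and hedgehog genes and 5 of 20 FGF pathway genes, which is 23.1%, 20% and 25% beside 65.9% of the listed transcription factor genes and 5.09% of all genes. The ligand gene WNT5A lay in 10 kb with 1.72% and 2.53%, and the receptor gene FZD8 in 7 kb with 0.691% and 1.34%. The morphogen gene SHH had 11 kb with 3.03% and 3.27% and no peak, and its receptor gene PTCH1 had 9 kb with 1.02% and 2.09% and a peak at the start. The FGF pathway inhibitors SPRY1, SPRY2 and SPRY4 were in valleys of 4, 6 and 5 kb with 27.3%, 33.2% and 37.1% of their length in peaks, while the valley of the ligand gene FGF5, 6 kb, had no peak.

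Polycomb subunit genes had 3 of 26 known starts in valleys, those of JARID2, BMI1 and KDM2B; CBX8, whose start is not known here, had an end in a valley of 18 kb on chromosome 17. Pluripotency genes had 8 of 18, and all 11 valleys of that list, by start or end, held a peak: a median of 24.6% of their length was in peaks, from 3.47% at FOXD3 to 45.85% at CRIPTO. Of all valleys 17.9% had no peak, and of those with other protein-coding genes 7.51%. A peak in 11 of 11 valleys is therefore not read as particular to the list. The median share in peaks was 12.04% over all valleys and 18.1% over those with other protein-coding genes. The 11 valleys included those of SOX2, LIN28A, SALL4, PRDM14, OTX2, ZIC2, TRIM71, ZSCAN10 and L1TD1, while NANOG was in a single bin and POU5F1 had no end in a valley. SOX2, SALL4, PRDM14, OTX2, FOXD3 and ZIC2 are also in the transcription factor lists. Germline and meiosis genes had 0 of 26 starts in valleys and 21 in no run, housekeeping genes 0 of 23 with 20 in shorter runs, and ribosomal protein genes 0 of 49 with 48 in shorter runs. Against the 5.09% of all genes, lists of this size hold few valley starts either way, so nothing is read from these zeros. By an end rather than a start, YWHAZ and RPL7 were the 1 housekeeping and 1 ribosomal protein gene in valleys, each of 4 kb.

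The remaining valleys held other genes or none. With 10 or more bins, 26 valleys had no listed transcription factor gene; chosen after their values were seen, examples are DMRTA2 (14 kb), the secreted neuropeptide precursor gene VGF (13 kb), the blood and vessel factor gene FLI1 (12 kb), the GABA enzyme gene GAD1 (11 kb), the vesicular GABA transporter gene SLC32A1 (10 kb) and the receptor gene PDGFRA (10 kb). Of 268 valleys without a protein-coding start or end by this count, 119 overlapped the span of a protein-coding gene. The start of a long non-coding RNA lay in 58, some valleys had both, and 110 had neither. The 119 include valleys at the far end of a gene with a known start, such as those of BARHL2 and PHOX2A. The longest were 2 of 13 kb, at chr15:96351001-96364000 with 1.83% and 3.13% and at the non-coding gene MIR9-2HG (chr5:88683001-88696000) with 0.878% and 2.46%. A valley of 12 kb lay inside PAX7 (0.293% and 1.79%) beside the 5 kb valley of its start, and 1 of 11 kb at the non-coding gene DLEU2 (1.05% and 1.73%).

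Hairpins of miRNAs lay in valleys in 23 of 1461 cases (1.57%). Their mature sequences from RefSeq (GRCh38.p14) are printed for 4 hairpins that were chosen after their values were seen, as examples with and without a developmental gene in the same valley; capitals mark the seed, bases 2 to 8. MIR9-2 (chr5:88666853-88666939) and MIR9-3 (chr15:89368017-89368106), brain miRNAs with the same mature sequences, lay in valleys of 4 and 6 kb without a protein-coding start or end. MIR10A (chr17:48579838-48579947) lay in the valley of HOXB4, and MIR196B (chr7:27169480-27169563) in that of HOXA9. The 3 printed seeds differ from each other.
hsa-miR-9-5p, from MIR9-2 and MIR9-3: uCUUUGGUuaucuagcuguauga
hsa-miR-10a-5p, from MIR10A: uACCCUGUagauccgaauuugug
hsa-miR-196b-5p, from MIR196B: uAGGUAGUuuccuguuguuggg

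Peaks covered little of a valley. The median valley had 12.04% of its length in peaks, 214 valleys (17.9%) had no peak, 562 had 2 or more and 22 were at least 50% covered. The share was lower at greater run length: medians of 29.5% in single bins, 27.05% in runs of 2 or 3 bins, 17.1% at 4 bins, 11.9% at 5 or 6, 6.82% at 7 to 9 and 4.38% at 10 or more. The bases in peaks changed less over the 4 classes of valley, with medians of 682.5, 656, 535 and 548 bp. The 15 longest ranged from no peak at UNCX and SIX3 to 7 peaks over 17.2% of the valley at OTX1. Long valleys without a peak included those of DMRTA2 and ONECUT3 with 14 kb and FOXF1 with 12 kb. Apart from mitochondrial copies, the highest share among valleys with at least 100 reads in each replicate was 63.5%, at SOX12.

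**Figure D4:**
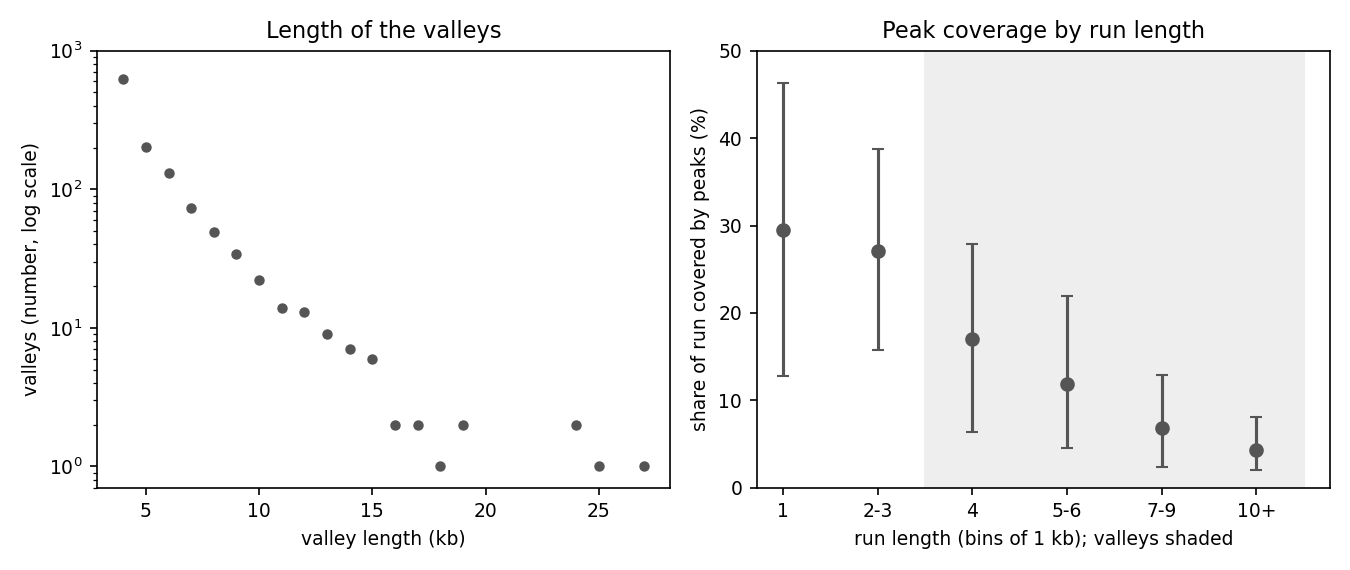
Left, the number of valleys (log scale) by length in kb. Right, the median share of a run covered by peaks, in percent, by run length, with bars from the lower to the upper quartile and the valleys shaded; medians go from 29.5% at 1 bin to 4.38% at 10 bins or more.

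Valleys of listed transcription factor genes had a lower median share in peaks than valleys of other protein-coding genes in each length class, as a description without a test. These other genes include unlisted regulators such as SP9 and DMRTA2. At 4 bins the median share in peaks was 7.65% in 63 valleys with a listed gene and 21.05% in 419 with other protein-coding genes; at 5 or 6 bins it was 6.94% and 16.7%, at 7 to 9 bins 6.65% and 11.1%, and at 10 or more 3.97% and 4.76%. A low share was not particular to valleys counted for a listed gene. Valleys without a protein-coding start or end had 6.54%, 4.46%, 4.83% and 4.75% in these classes, lower than the listed genes except at 10 or more bins. Some of these also lie at listed genes away from the start, such as those of PAX7 and BARHL2. Over all lengths 67 of 247 valleys with a listed gene (27.1%) had no peak, against 51 of 679 (7.51%) with other protein-coding genes and 96 of 268 (35.8%) without either. At gene starts, 61% of the 769 starts in valleys had a peak in the window from 250 bases before to 50 after, as did 84.5% of the 9944 starts in shorter runs. For the listed genes it was 78 of 166 (47.0%), for the other genes in valleys 391 of 603 (64.8%). In valleys with 1 known start and a peak summit, the nearest summit was a median of 177.5 bp from the start and within 500 bp in 258 of 368. Each of these values comes from 1 peak list, so no spread over replicates can be given, and since CpGs in peaks have more reads, the read minimum of the rule is met more easily there.

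Every bin of a valley was chosen for low methylation, in and out of peaks, so the levels that follow are a description. Inside valleys, CpGs in peaks had 0.535% and 1.54% of reads methylated, a mean of 1.04% ± 0.714 (SD, n = 2). CpGs within 500 bp of a peak had 2.24% and 3.24% (2.74% ± 0.705), those 500 to 2000 bp away 2.29% and 3.15% (2.72% ± 0.607), and those over 2000 bp away 2.18% and 2.96% (2.57% ± 0.553). CpGs in peaks had the lowest value in each replicate. Beyond the peaks the 3 classes differed by less than the spread between replicates, and the class over 2000 bp away was the lowest of the 3 within each replicate. Reads per CpG went from 17 and 20.6 in peaks to 2.03 and 3.45 over 2000 bp away, so single CpGs far from peaks rest on few reads.

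There were 5 valleys on nuclear copies of mitochondrial genes, where reads of the nucleus and of mitochondrial DNA cannot be told apart with these files. They included the valleys with the highest share in peaks, chr1:629001-635000 with 98.7% and a valley inside PCBD2 with 83.9%. They held 11.6% and 7.31% of all valley reads. Without them, the valleys read 1.24% and 2.24% methylated, and CpGs in peaks 0.510% and 1.43% at 13.9 and 18.0 reads per CpG. None of them is at a listed gene.

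Valleys reached further into genes than in front of them. In 432 valleys with a single known protein-coding start, a median of 1973.5 bp lay before the start and 2679 bp after it, and the part after it was the longer in 273 (63.2%). The edge on the gene side read 43.2% and 48.5% over the 1000 bp beyond it, and the edge on the other side 42.5% and 49.8%, which differed by less than the spread between replicates.

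With reads summed and nearby runs included, methylation rose steeply at the edges and then fell back. The last 1000 bp inside read 1.95% and 3.31%, the first 250 bp outside 27.8% and 31.4% (29.6% ± 2.51), and the first 1000 bp outside 43.2% and 49.6% (46.4% ± 4.50; SD, n = 2). A level of 50% was first reached 500 to 750 bp outside in replicate 1 and 250 to 500 bp outside in replicate 2. Further out the level was lower again, 24.1% and 38.8% at 1000 to 2000 bp and 23.6% and 35.1% at 2000 to 5000 bp (29.4% ± 8.17). The bin next to an edge was chosen by the rule, so the CpGs from 2000 to 5000 bp were taken as the measure of the rise over the level inside the valleys: 22.4 points in replicate 1 and 32.9 in replicate 2, a mean of 27.6 ± 7.41 (SD, n = 2), above the spread between replicates. With reads summed, places that give many reads weigh most, and part of these are shorter unmethylated runs nearby. With the CpGs of shorter runs left out, the rise was 61.7 and 69.2 points (65.4 ± 5.37), and with each valley weighted equally 50.2 and 60.7 (55.5 ± 7.45). The measure without shorter runs was chosen after the data were seen.

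**Figure D5:**
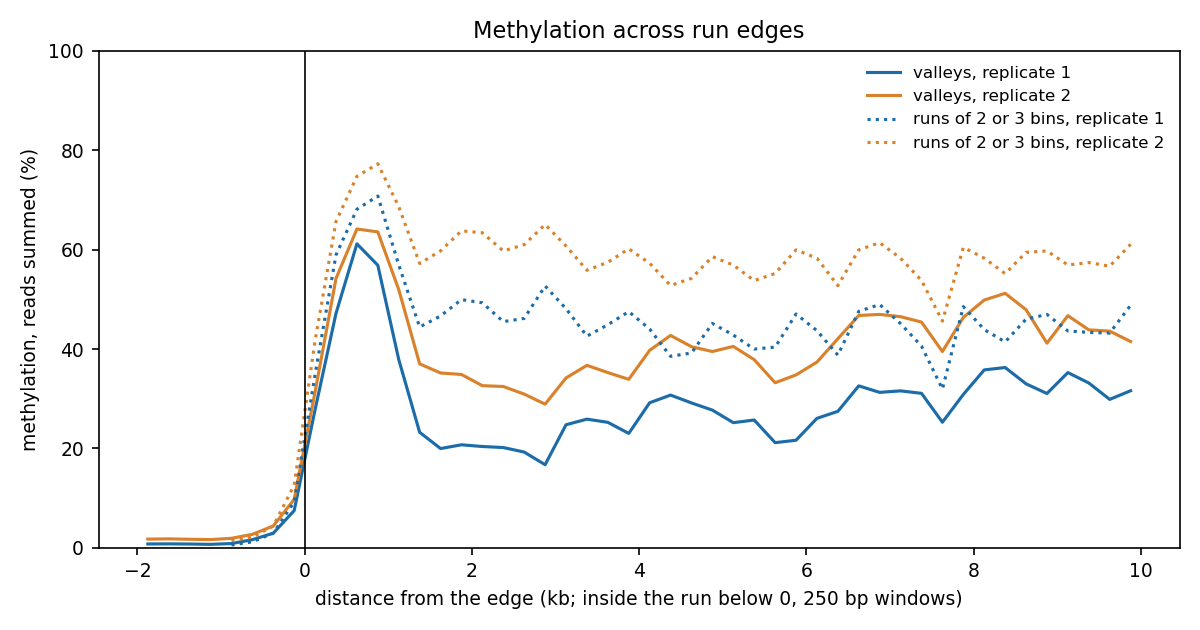
Methylation in percent of CpG reads, in 250 bp windows from 2 kb inside to 10 kb outside the 2388 edges of valleys (solid) and the edges of runs of 2 or 3 bins (dotted), in replicates 1 and 2. Reads are summed and CpGs of nearby runs are included. All 4 lines rise within the first kb. Past it they fall back, and at 2 to 5 kb the solid lines read 23.6% and 35.1% and the dotted lines 45.0% and 58.7%.

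With reads summed and nearby runs included, the surroundings at 2000 to 5000 bp read lower for valleys than for runs of 2 or 3 bins, which had 45.0% and 58.7%. No matching value without nearby runs was computed for the latter. Valleys also lay near each other: 278 had another valley within 20000 bp, 123 neighbouring pairs lay within 5000 bp, and 57 pairs were separated by a single bin. Of those single bins 24 were over the limit, 29 had too few CpGs and 4 too few reads. Valleys with a listed transcription factor gene had 14.6% and 22.8% at 2000 to 5000 bp, those with other protein-coding genes 34.0% and 47.1%, and those without either 15.8% and 24.1%. Among 299 valleys with at least 100 reads at that distance in each replicate, the median was 12.4% and 17.5%, and 160 were under 20% in both. These 299 were chosen by depth, and how that choice bears on their levels was not tested.

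What ended a valley was not always methylation. Of 2388 edges, 1279 (53.6%) met a bin over the limit, 1046 (43.8%) a bin with too few CpGs and 63 a bin with too few reads. The bins over the limit had a median of 57% pooled methylation, 709 were at 50% or more, and 162 were at 15% to 20%. Of the 523 bins with too few CpGs that still had at least 10 reads, 124 (23.7%) were under 15%, so part of the valleys go on at low CpG density past the edge given here.

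Among the 299 valleys with enough reads beyond the edges, the largest rises were at CFL1 and MUS81 (93.8 points ± 2.05, SD, n = 2), an actin-severing factor and a DNA repair nuclease, at OPLAH, at POU3F1 (89.3 ± 9.07), inside THBS3 and at TMEM256. These are 5 valleys of 4 kb. At the other end of the ranking, the neighbouring DNA was less methylated than the valley. A valley at the far end of BARHL2 had 4.22% and 5.68% and the DNA beyond 0.661% and 1.74%. At MIR9-2 the values were 1.72% and 4.65% against 0.452% and 1.37%. The valley of the BARHL2 start lay 1 bin away from that at its far end. UNCX had 85.0% of 40 and 85.8% of 345 reads methylated beyond its edges, SIX3 had 6.19% of 323 and 5.83% of 583, and GATA3 had 10.5% of 190 and 30.9% of 188. At GATA3 the sides differed. In replicate 2 the bins on the right read 0% of 71, 4.76% of 42 and 47.6% of 21 reads. Those on the left read 83.3% of 18, 75% of 12 and 91.7% of 24. The surroundings of long valleys thus differed in methylation, also between the sides of 1 valley.

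Each replicate was also used to check the valleys of the other, which is independent of the choice. By the same rule replicate 1 alone gave 1201 valleys, of which 1200 were under 15% in replicate 2, at 2.37% with reads summed, and 94.5% of their bins with enough reads were under the limit there. Replicate 2 alone gave 1158 valleys, all under 15% in replicate 1, at 1.21%, with 96.4% of bins under the limit. The rise from valley to 2000 to 5000 bp beyond was 33.0 points in replicate 2 and 22.2 points in replicate 1 for valleys chosen in the other replicate. Of the 1194 pooled valleys 999 (83.7%) touched a valley of both single-replicate sets. The largest differences between replicates, among valleys with at least 100 reads in each, were all at valleys of 4 kb. The largest was inside KIAA0825, on a mitochondrial copy, with 4.21% and 10.9%. The next went the other way, 9.04% and 3.81% at chr4:8891001-8895000, and was followed by 0.356% and 5.19% at chr6:149988001-149992000 and by GIPR, the gene of an incretin receptor, with 6.17% and 10.6%.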

How the data were processed

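Reads of 2 ATAC-Me libraries of H9 cells were analysed as deposited. For each replicate the authors deposited, per CpG, a fraction of methylated reads (0 to 1) and a count of covering reads. CpGs listed without reads added nothing to the methylation values. They were counted as listed CpGs in the rule for bins and in the values of reads per CpG. For the group the authors deposited 1 peak list with a score per peak, a peak signal and the −log10 of the q-value, of which the positions, the signal and the −log10 q were used. The build was hg38 (GRCh38), and reads and peaks were made with Trim Galore and Genrich, per the submitters' processing notes. Not given in the sources used here are the mapper, the caller of methylation, the treatment of duplicate reads and how replicates entered Genrich.

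Methylated reads were taken as the fraction times the count, rounded (100% of these values lay within 0.001 of a whole number). Reads and methylated reads were then summed over the CpGs of a bin or valley and divided, so a read is counted at each of its CpGs. Limits from counts of 0 (3 reads of the total) treat these counts as independent and are too narrow. They cover counting error only. A cytosine that fails to convert reads as methylated. Gene starts came from the RefSeq promoter table (GRCh38.p14), which holds 15101 autosomal protein-coding genes; for the others an end of the gene from the RefSeq gene table was used. All 74039 CpGs of the promoters checked matched listed positions counted from 0; positions are printed counted from 1. A peak at a start is a peak with at least 1 base in the window from 250 bases before to 50 after it. The rule for the genes named was the 15 longest valleys, the highest and lowest shares in peaks, the largest replicate differences, the largest and smallest rises, the longest valleys without a protein-coding start or end, and any member of a gene list. Some items that the rule takes are left out of the text. The members and the gene lists were chosen with earlier results of these data known. Values are given per replicate, with the SD over 2 replicates. No p is given, because there is 1 group of 2 replicates and valleys of 1 library are not replicates. The search for runs was tested on simulated data. Python 3.11.15, numpy 2.4.6, pandas 2.3.3 and matplotlib 3.10.9 were used.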

Additional observations from a re-analysis of the deposited data

How the results depend on the processing

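Of 70 alternative values, 53 stayed within the limits set for them, 17 moved and 0 changed sign. Counts and shares cannot change sign, and the rise starts from valleys chosen for low methylation. Nothing is therefore read from the lack of sign changes. For the number of valleys the limit was a fixed factor. For the share of transcription factor genes it was an interval from counting genes, 59.82% to 71.449%. Neither is a spread between replicates, and genes are not replicates. The number of valleys (1194) was 3327 with runs of 3 or more bins and 572 with 5 or more. With these the median share in peaks was 19.45% and 8.341%, the rise beyond the edges 42.379 and 18.101 points, and the share of transcription factor genes 76.19% and 50%. With a limit of 10% methylation, that share was 59.127%, and 99.756% of the valleys of 1 replicate were under that limit in the other. The median share in peaks was 12.92% with at least 50 reads per bin, 10.617% with each covered CpG weighted equally, 5.785% with peaks above the median significance, and 13.409% as covered bases over all bases. The rise was 55.475 points with each valley weighted equally and 65.447 points without the CpGs of shorter runs. The last of these, and the alternatives on mitochondrial copies, on CpGs marked as altered, on either gene end and on valleys chosen in the other replicate, were chosen after the data were seen. Leaving out each replicate gave 1158 to 1201 valleys, 12.215% to 12.98% in peaks, a rise of 22.064 to 32.921 points and 61.111% to 64.683% of transcription factor genes. Beyond the alternatives' own construction, the cause of the shifts was not tested. No paired comparison between groups was possible because there is 1 group. Levels inside and beyond the edges, and in and out of peaks, come from the same library within each replicate. Depth limits the bins far from peaks, where CpGs had 2.03 and 3.45 reads, and a bin without enough reads ends a valley.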
